A study of Danio rerio with 6 samples.

Results

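In cultured zebrafish testes with and without insulin-like 3 (Insl3), a hormone of Leydig cells, 6 genes were followed. They were slc25a1b, aco1, acss1, acat2, fasn and h6pd. All but h6pd encode products that handle citrate, acetyl-CoA or the fatty acids built from it. The product of h6pd makes NADPH in the endoplasmic reticulum. All 6 belong to the 409 transcripts that the study listed as changed at an unadjusted p under 0.05 in these same libraries. They were picked from that list by name, each through the 1 transcript listed for it. The whole series counts 46260 transcripts. Because the Insl3 against basal contrast chose these genes, their levels and fold changes are a description, and no p is given for them.

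Citrate leaves mitochondria through the citrate carrier, and in the cytosol it can either be split into acetyl-CoA and oxaloacetate or be turned into isocitrate by the cytosolic aconitase. Acetyl-CoA is the carbon source both for fatty acid synthase, which builds palmitate, and for the sterol pathway, which opens with the joining of acetyl-CoA units. Both routes consume NADPH. In the testis, lipids made in this way enter the membranes of dividing germ cells and supply the cholesterol from which Leydig cells make steroids.

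Testes came from adult wild-type males. The 3 Insl3 testes had zebrafish Insl3 peptide (100 ng/mL) in the medium only during the last 2 days of culture, which followed 2 days without it, and the 3 basal testes were cultured alike without it. Each testis gave 1 library. Leydig cells are the source of Insl3 in the testis. The first incubation was meant to let the tissue's own Insl3 decline, and how much of it remained was not measured here. The labels call the replicates biological, and whether same-numbered testes came from 1 male is not stated.

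Total counts ranged from 21178283 to 25472401 in the Insl3 libraries and from 20967304 to 28939006 in the basal libraries. Values below are counts scaled to library size after TMM normalization (CPM), and log2 fold changes (Insl3 over basal, with their standard errors) come from edgeR's quasi-likelihood fit over the 36363 transcripts that passed a filter on low counts. All 6 genes passed. The median log2 fold change over all tested transcripts was 0.0056, and edgeR called 341 transcripts lower (0.938%) and 197 higher (0.542%) at an unadjusted p under 0.05. The lower share of these calls was 63.4%, against 78.8% with scaling to library totals. With single testes left out the calls ran from 109 lower and 61 higher without Insl3 replicate 3 to 729 lower and 743 higher without basal replicate 3. After adjustment 0 transcripts passed in edgeR and 0 in DESeq2, which called 538 (1.48%) at an unadjusted p under 0.05. Same-numbered libraries resembled each other across the conditions, so each gene is also given as a difference within pairs 1, 2 and 3. With the replicate number as a block, edgeR called 2229 transcripts lower (6.13%) and 2691 higher (7.40%) at the unadjusted threshold, and 0 after adjustment. DESeq2 with this block, added once the data had been seen, passed 477 transcripts (1.31%) after adjustment. Markers of other cell types could be matched only through the study's list of changed transcripts, so the contrast itself chose those that follow and their direction is no independent evidence. Of the hepatocyte markers, 9 of 24 were matched and none was at 0 in any library. Their summed level was 16.5 to 65.5 CPM in the Insl3 testes and 78.7 to 520 CPM in the basal testes, and without transferrin (tfa) it was 6.73 to 9.97 CPM with Insl3 and 13.1 to 57.5 CPM under basal conditions. Basal replicate 3 held the highest value for 8 of these 9 markers, and for 16.5% of all tested transcripts. For 3 matched adipocyte markers of 6 (pparg, lpl and pnpla2) the sum was 11.03 to 19.0 CPM with Insl3 and 17.2 to 70.8 CPM under basal conditions, with basal replicate 3 again the highest for each. For 2 matched enterocyte markers of 5 (npc1l1 and slc6a19b) the sum was 6.36 to 10.4 CPM with Insl3 and 8.04 to 12.3 CPM under basal conditions. These 2 went opposite ways, with a log2 fold change of -0.89 for npc1l1 and 0.77 for slc6a19b. The sum of 2 exocrine pancreas markers of 7 (ela2l and cel.1) was higher with Insl3, at 2.94 to 4.51 CPM, against 1.42 to 1.88 CPM under basal conditions. The 1 matched myeloid marker of 3, mpx, had 0.076, 3.90 and 7.12 CPM in Insl3 replicates 1, 2 and 3, against 0.247, 0.771 and 0.320 CPM in the basal testes, and so was highest in Insl3 replicate 3. The part of any of these cell types in the results was not tested. Markers of germ, Sertoli and Leydig cells were not matched, as no matched transcript of the study's list carries the names searched. The tissue label was therefore not checked against them.

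All 6 genes, each read through its 1 listed transcript, had a lower mean level in Insl3-treated testes. Their log2 fold changes lay between -1.67 and -0.64, with a median of -1.02. This median was -0.69 without basal replicate 3 and -0.55 without both replicate 3 testes. Other transcripts of these genes were not matched, so a shift between transcripts of 1 gene was not tested. They differed in how far the groups stood apart. The citrate carrier slc25a1b, the aconitase aco1 and the synthase fasn were below every basal testis in every Insl3 testis. The acetyl-CoA synthetase acss1 missed this by 1 near-equal pair of values. For the thiolase acat2 and the dehydrogenase h6pd the groups overlapped, and 1 basal testis stood well above all the rest. In bulk tissue, fewer cells of a type and less RNA per cell cannot be told apart.

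**Figure D1:**
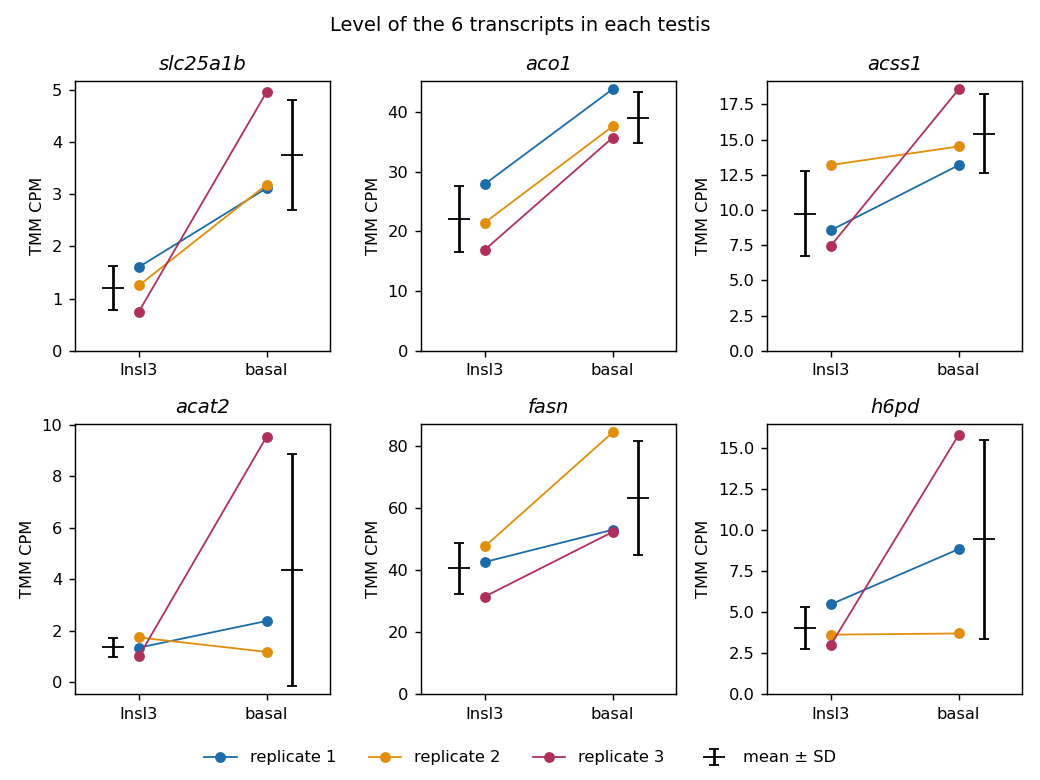
TMM-normalized CPM (vertical axes) of the 6 transcripts in the 3 Insl3 testes (left in each panel) and the 3 basal testes (right). Lines join testes with the same replicate number, and black bars give the mean ± SD of each group (n = 3). All 6 transcripts have their lowest value in Insl3 replicate 3 (23.1% of all tested transcripts do), and 4 of them have their highest value in basal replicate 3 (16.5% do).

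The slc25a1b gene (ENSDART00000109131.3) encodes the mitochondrial citrate carrier, which exchanges mitochondrial citrate for cytosolic malate. Its transcript had 42, 26 and 15 counts in Insl3 replicates 1, 2 and 3, against 101, 95 and 93 counts in basal replicates 1, 2 and 3. After normalization these were 1.61, 1.25 and 0.752 CPM with Insl3 and 3.12, 3.18 and 4.96 CPM under basal conditions. The groups were well apart, with Insl3 replicate 3 the lowest and basal replicate 3 the highest of the 6 testes. The mean was 1.20 ± 0.43 CPM with Insl3 and 3.75 ± 1.05 CPM without (SD, n = 3 each). On the log2 scale the fold change was -1.63, with a standard error of 0.40, or 3.09-fold lower. The difference was present in every pair, at -0.92, -1.29 and -2.60 log2 in pairs 1, 2 and 3. At 15 counts the exact 95% Poisson interval runs from 8.40 to 24.7, which covers counting error only, so the lowest value is the least precise of the 6. RefSeq also lists a second citrate carrier gene, slc25a1a, and how reads that fit both copies were counted is not given in the sources used here.

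Aconitase 1, encoded by aco1 (ENSDART00000045253.7), interconverts citrate and isocitrate in the cytosol. When it lacks its iron-sulfur cluster, the same protein binds iron-responsive elements in mRNAs, which it is best known for in mammals as iron regulatory protein 1. Counts were 731, 446 and 338 with Insl3, against 1420, 1122 and 669 under basal conditions. On the CPM scale the Insl3 testes had 27.9, 21.5 and 16.9, against 43.8, 37.6 and 35.7 in the basal testes. Every Insl3 testis was lower, and in both conditions replicate 1 was the highest and replicate 3 the lowest. This gave 22.1 ± 5.53 CPM with Insl3 and 39.0 ± 4.26 CPM without (SD, n = 3 each). Of the 6 genes aco1 had the smallest standard error (log2 fold change -0.82, standard error 0.23) and the most even pairs, at -0.65, -0.81 and -1.07 log2.

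The acss1 gene (ENSDART00000164160.1) encodes an acetyl-CoA synthetase, in mammals the mitochondrial form, which activates free acetate. Insl3 testes held 224, 274 and 149 counts, against 427, 433 and 348 in basal testes, or 8.56, 13.2 and 7.47 CPM with Insl3 and 13.2, 14.5 and 18.6 CPM under basal conditions. Insl3 replicate 2 and basal replicate 1 thus had equal values to the precision given, and the groups touched there. Means were 9.74 ± 3.04 CPM with Insl3 and 15.4 ± 2.81 CPM without (SD, n = 3 each). In the fit acss1 stood at -0.66 log2, with a standard error of 0.28. Pair 2 showed little difference (-0.14 log2), pair 1 an intermediate one (-0.62) and pair 3 the largest (-1.30).

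Fatty acid synthase, encoded by fasn (ENSDART00000129458.2), joins acetyl and malonyl units into palmitate with NADPH as the reductant. It was counted 1112, 987 and 626 times with Insl3, against 1713, 2514 and 978 times under basal conditions. Normalized levels were 42.5, 47.5 and 31.4 CPM in the Insl3 testes and 52.9, 84.2 and 52.2 CPM in the basal testes. The Insl3 values all lay below the basal ones, with a narrow gap between Insl3 replicate 2 and basal replicate 3. The mean was 40.5 ± 8.27 CPM with Insl3 and 63.1 ± 18.3 CPM without (SD, n = 3 each). Its log2 fold change of -0.64 (standard error 0.27) was the smallest of the 6, and 5.24% of all tested transcripts had one as low or lower. In contrast to the other 5 genes, the largest difference of fasn was in pair 2 (-0.82 log2), against -0.31 in pair 1 and -0.73 in pair 3.

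The acat2 gene (ENSDART00000146376.1) encodes acetyl-CoA acetyltransferase 2, the thiolase that condenses 2 acetyl-CoA into acetoacetyl-CoA ahead of the sterol pathway. Insl3 testes had 35, 36 and 20 counts and basal testes had 77, 35 and 179. In CPM this was 1.34, 1.73 and 1.002 with Insl3, against 2.38, 1.17 and 9.55 under basal conditions. The Insl3 testes were close to each other, whereas basal replicate 3 was far above the other two and basal replicate 2 was below 2 of the 3 Insl3 testes. Means were 1.36 ± 0.37 CPM with Insl3 and 4.37 ± 4.53 CPM without (SD, n = 3 each). The log2 fold change was -1.67 with a standard error of 0.75, the largest of the 6 in both respects. In pair 2 acat2 was higher with Insl3 (0.53 log2), in pair 1 it was lower (-0.79) and in pair 3 much lower (-3.15). Without basal replicate 3 its log2 fold change was -0.39. That testis had the highest sum of hepatocyte and of adipocyte markers, and the part of those cell types was not tested.

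Hexose-6-phosphate dehydrogenase, encoded by h6pd (ENSDART00000149642.1), produces NADPH inside the endoplasmic reticulum, apart from the cytosolic pool that fatty acid synthase uses. Counts were 143, 75 and 60 with Insl3, against 286, 110 and 296 under basal conditions, which is 5.47, 3.61 and 3.01 CPM with Insl3 and 8.83, 3.69 and 15.8 CPM under basal conditions. Basal replicate 2 lay within the range of the Insl3 testes, so the groups overlapped. The mean was 4.03 ± 1.28 CPM with Insl3 and 9.43 ± 6.08 CPM without (SD, n = 3 each), and the fit gave -1.22 log2 with a standard error of 0.52. Pairs 1 and 3 differed by -0.68 and -2.36 log2, and pair 2 by -0.028. Leaving out basal replicate 3 gave a log2 fold change of -0.64.

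Over the 6 genes, 3 had groups that did not overlap, where 2.66% of all tested transcripts were lower with Insl3 without overlap. Without basal replicate 2 it was 5 of the 6. Fewer testes overlap less easily, and the share over all transcripts was not computed for that set. In all 3 pairs 5 of the 6 were lower, acat2 being the exception, where 17.0% of all tested transcripts were lower in all 3. These counts come from the contrast that chose the genes and are given as a description. The median difference of the 6 genes was -0.67, -0.47 and -1.83 log2 in pairs 1, 2 and 3, against 0.040, -0.0036 and 0.020 over all tested transcripts. Pair 3 therefore held the widest difference, and it was the widest for each gene but fasn.

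**Figure D2:**
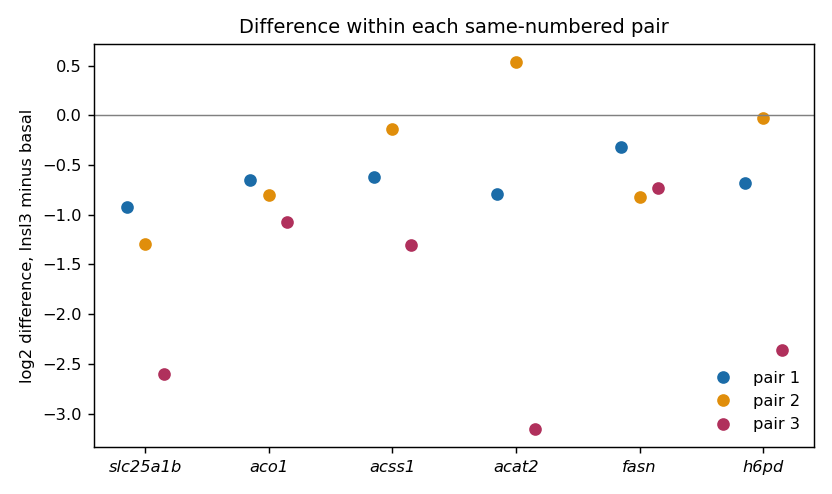
Difference in log2 CPM (vertical axis, Insl3 minus basal) within each same-numbered pair of testes for the 6 genes, 1 point per pair. The aco1 points lie within -1.07 to -0.65, whereas those of acat2 spread from -3.15 to 0.53.

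How far the genes varied together among testes of 1 condition was read from the deviations of log2 CPM from the mean of the own group, which do not contain the difference between the conditions. Insl3 replicate 3 lay below its group mean for all 6 genes, by -0.57 for slc25a1b and by -0.38 to -0.34 for the other 5. Among basal testes the genes parted. Basal replicate 3 was far above the group mean for acat2 (1.64) and h6pd (0.97), moderately above it for slc25a1b (0.43) and acss1 (0.28), and below it for aco1 (-0.12) and fasn (-0.24). Basal replicate 2 lay on the other side of the mean for each gene but aco1. It was at -1.30 for acat2, -1.11 for h6pd, -0.20 for slc25a1b, -0.072 for acss1 and 0.45 for fasn. For aco1 it lay below the mean (-0.049), like basal replicate 3.

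The closest genes in this measure were acat2 and h6pd, whose deviations correlated with r = 0.88 over the 6 libraries, and those of slc25a1b and h6pd with r = 0.70. At the other end, fasn had r = -0.55 with h6pd and r = -0.44 with acat2. The mean over all 15 pairs of genes was 0.29, and slc25a1b had the highest mean r with the other 5 genes (0.54) and fasn the lowest (-0.027). These are 6 points with 4 degrees of freedom that share library depth and normalization, so they are descriptions of these libraries. Without Insl3 replicate 3 the mean r was -0.019.

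**Figure D3:**
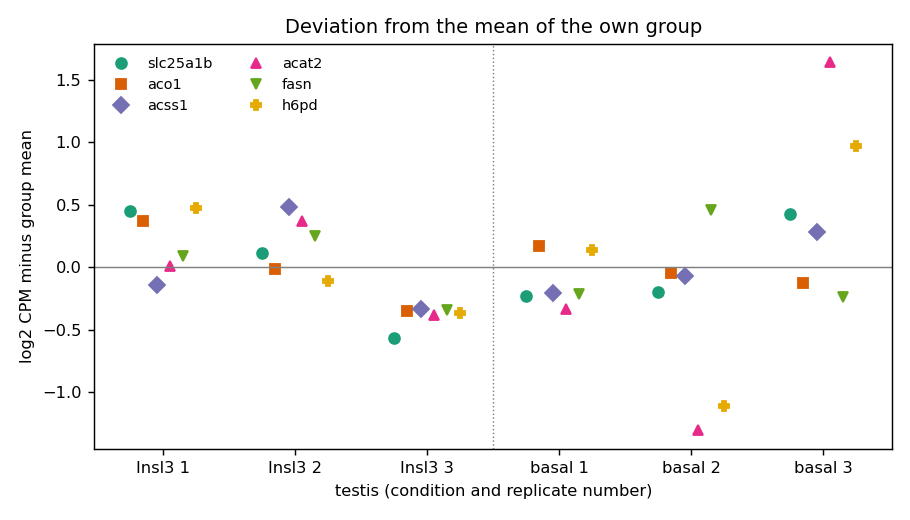
Deviation of log2 CPM from the mean of the own group (vertical axis) for the 6 genes in the 3 Insl3 and the 3 basal testes, 1 marker per gene. In Insl3 replicate 3 all 6 markers lie below 0, and in basal replicate 3 they spread from -0.24 (fasn) to 1.64 (acat2).

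Each testis was left out in turn to see which values rest on 1 library. The log2 fold change remained below 0 for all 6 genes in each of these 6 fits. It ran from -1.90 to -1.37 for slc25a1b, from -1.02 to -0.68 for aco1, from -0.94 to -0.50 for acss1 and from -0.76 to -0.38 for fasn. The range was wider for h6pd, from -1.60 to -0.64, and widest for acat2, from -2.12 to -0.39. For acss1, acat2, h6pd and slc25a1b the difference was smallest without basal replicate 3, for fasn without basal replicate 2 (its highest basal testis), and for aco1 without Insl3 replicate 3. Without basal replicate 3, aco1 was at -0.88 and fasn at -0.75, both further from 0 than with all 6 testes.

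**Figure D4:**
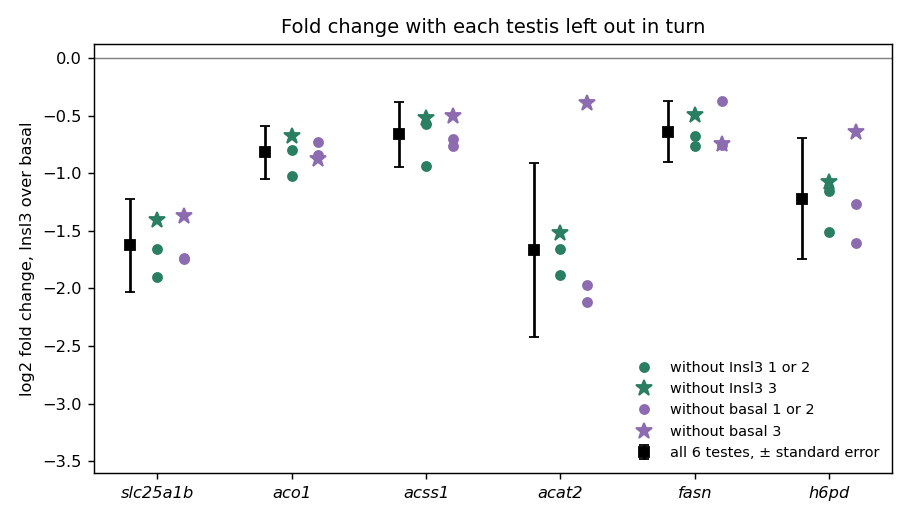
Log2 fold change (vertical axis, Insl3 over basal) of the 6 genes in the fit of all 6 testes (squares, ± standard error) and in the 6 fits of 5 testes (circles, and stars for a left-out replicate 3). The purple star of acat2, the fit without basal replicate 3, lies at -0.39, against -1.67 with all 6 testes.

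Other genes of the same routes were taken from a list of 80, of which 21 could be matched to a transcript and tested, 15 of them besides the 6 genes. The names could be matched only through the study's list of changed transcripts, so all 15 were called on these libraries and their direction is no independent evidence. Key genes of the route, among them ATP citrate lyase, acetyl-CoA carboxylase and the Srebf transcription factors, were not matched and not analysed here. No matched transcript of the study's list carries the names searched for them. All 15 had a lower mean with Insl3 and a median log2 fold change of -1.09. At an unadjusted p under 0.05, 12 of the 15 passed as lower and 0 as higher in edgeR, where 0.938% and 0.542% of all tested transcripts did, and 14 passed as lower with the replicate number as a block, where 6.13% did. In DESeq2 without the block 15 of the 15 passed as lower, where 293 of 36363 tested transcripts did. With the block, added to DESeq2 once the data had been seen, 10 passed as lower, where 1347 of 36363 did. The groups did not overlap for 11 of the 15, where 2.66% of all tested transcripts were lower without overlap. Of the 15, 2 passed without Insl3 replicate 3, 3 without basal replicate 3, and 6 without Insl3 replicate 1 and again without Insl3 replicate 2. Over all tested transcripts, 109 of 37398 were called lower without Insl3 replicate 3 and 729 of 37465 without basal replicate 3. Without Insl3 replicate 1 it was 346 of 36960, and without Insl3 replicate 2 it was 444 of 37516. Basal replicate 3 was also the testis with the highest hepatocyte and adipocyte marker sums. These markers were matched through the same list, and pparg is both an adipocyte marker and 1 of the 15 genes. The part of these cell types in the calls was not tested.

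Of 24 genes listed for fatty acid synthesis, elongation, desaturation and hydroxylation, 6 were matched, only through the study's list of changed transcripts. Besides fasn these were 5, and each fell at the unadjusted threshold without overlap of the groups. Over all tested transcripts, 0.938% were called lower and 2.66% were lower without overlap. The elongation enzymes tecrb and hsd17b12b, which act in the last and the second step of the elongation cycle, stood at -1.16 ± 0.36 and -0.80 ± 0.30 log2 (fold change ± standard error, also for the genes that follow). For tecrb the Insl3 testes had 4.01, 4.58 and 3.61 CPM, against 7.28, 6.10 and 13.9 CPM in the basal testes. The hsd17b12b transcript was even among basal testes, with 5.77, 4.91 and 3.01 CPM with Insl3, against 8.27, 7.61 and 8.06 CPM under basal conditions. The electron donor cyb5a, a cytochrome b5 that serves desaturases and sterol enzymes, and cyb5b, another cytochrome b5, stood at -0.88 ± 0.35 and -1.13 ± 0.35 log2. The fatty acid hydroxylase fa2h stood at -1.39 ± 0.55 log2. Without basal replicate 3, fa2h was at -0.66, tecrb at -0.71 and cyb5a at -0.49. In that fit hsd17b12b was at -0.79 and cyb5b at -1.08.

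Malic enzyme me1, which yields NADPH in the cytosol, had 2.26, 3.42 and 2.76 CPM with Insl3, against 1.64, 4.26 and 28.0 CPM under basal conditions. Its groups overlapped and the difference lay mostly in basal replicate 3, as for acat2. It stood at -1.997 ± 0.94 log2 with all testes and at -0.044 without basal replicate 3.

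Downstream of acat2, the sterol pathway genes hmgcs1 (the synthase that makes HMG-CoA) and hmgcra (HMG-CoA reductase) fell at the unadjusted threshold, to fold changes of -0.93 ± 0.35 and -1.09 ± 0.46 log2. Squalene synthase fdft1, at -0.84 ± 0.36 log2, did not pass, but passed as lower with the replicate block. Over all tested transcripts, 0.938% were called lower, and 6.13% with that block. All genes named here were again matched only through the study's list of changed transcripts, so passing is no independent evidence. Pparg, a nuclear receptor that promotes lipid storage and is also among the adipocyte markers, and ldlra, the receptor for low-density lipoprotein, also fell, with -1.54 ± 0.65 and -1.76 ± 0.67 log2. The groups overlapped for hmgcra and ldlra, which stood at -0.64 and -0.90 without basal replicate 3, and did not overlap for hmgcs1, fdft1 and pparg. The pparg transcript had only 7 counts in Insl3 replicate 3, and stood at -0.70 without both replicate 3 testes.

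For the opposite route, fatty acid oxidation, 4 of 14 listed genes were matched, again only through the study's list of changed transcripts. Of these, 3 fell at the unadjusted threshold, where 0.938% of all tested transcripts did. They were cpt1aa (the mitochondrial entry step), acad11 (an acyl-CoA dehydrogenase) and etfa (an electron carrier from these dehydrogenases), with log2 fold changes of -0.58, -1.09 and -0.49. The thiolase acaa2 had 25.4, 20.9 and 24.2 CPM with Insl3, against 33.9, 23.2 and 84.3 CPM under basal conditions. It stood at -1.005 ± 0.45 log2, or at -0.28 without basal replicate 3. In edgeR it did not pass with condition alone. It passed as lower in edgeR with the replicate block, and in DESeq2 without that block. Over the 15 genes the median difference was -0.42, -0.48 and -1.94 log2 in pairs 1, 2 and 3, and me1 in pair 1 was the only case of a higher value with Insl3.

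**Figure D5:**
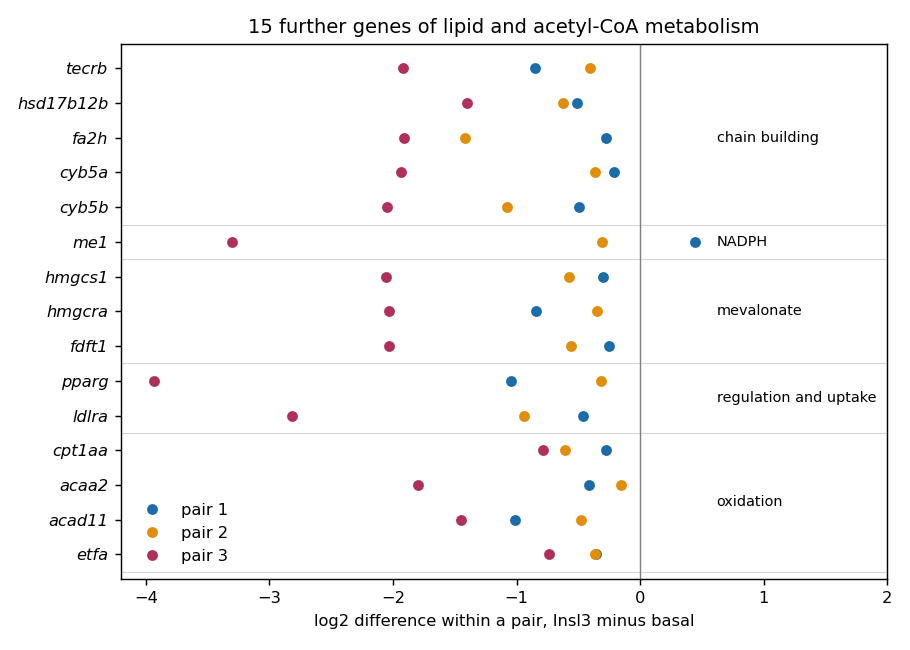
Difference in log2 CPM (horizontal axis, Insl3 minus basal) within each same-numbered pair for the 15 further genes, grouped by their role. Pair 3 lies furthest to the left for each of the 15 genes, and 14 of them lie below 0 in all 3 pairs.

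Among the other named transcripts of the study's list, those most like the mean profile of the 6 genes over the 6 libraries included adka (r = 0.99), ENSDART00000135600.1, which has only a clone-based name (r = 0.99), nkain4 (r = 0.99) and ero1b (r = 0.98), out of 381 candidates. Over the deviations from the group means they were ENSDART00000135600.1 (r = 0.99), epdl1 (r = 0.98) and pparg, irgf3 and mgll (r = 0.97 each). Among all tested transcripts, 29 had an r at or above that of epdl1 in this measure. For pparg, irgf3 and mgll it was 58, 60 and 63, each gene itself included. Only ENSDART00000135600.1 was in both lists. It had 5.89, 5.83 and 2.96 CPM with Insl3, against 10.2, 8.51 and 13.4 CPM under basal conditions. The first measure contains the contrast by which these transcripts were listed, and with 6 points both are descriptions.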

How the data were processed

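RNA from 6 cultured testes was sequenced as paired-end libraries. The authors aligned reads to GRCz10 with TopHat2 (version 2.0.12), counted them with HTSeq (version 0.6.1), and the deposited values are raw counts for each Ensembl transcript. Annotation release, strand setting and counting mode are not given in the sources used here, so counts of genes that overlap or share near-identical sequence are uncertain.

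Gene symbols were matched through the transcript ID and symbol columns of the study's list of changed transcripts (408 of 409 IDs matched), since the reference tables hold no transcript IDs. No sequence, transcript length or GRCz10 annotation was used here. Members and lists were chosen with earlier results of these data known.

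Counts were filtered with filterByExpr (minimum count 10), TMM-normalized and tested with edgeR 4.0.16 in R 4.3.3 (quasi-likelihood test, two-sided, condition alone), with Benjamini-Hochberg adjustment over 36363 transcripts. Standard errors are the log2 fold change over the square root of F. Log2 CPM used a prior count of 2. A single transcript with 3 testes against 3 cannot go below p = 0.10 in an exact two-sided permutation test. The fit was tested on simulated counts that held no differences between pairs of testes. That test does not show how the fit behaves where such differences are present.

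Groups and replicate numbers came from the sample titles. Deviations from the group means correlated with r = 0.73, 0.58 and 0.60 for same-numbered libraries 1, 2 and 3, and between -0.51 and -0.19 otherwise, so the numbers were treated as pairs, although no label states it. The deviations of a group cancel out for each transcript, so positive same-numbered values push the others to negative values. The negative values are therefore no further evidence of pairing. Alternatives were DESeq2 1.42.0, RLE factors, library totals, no filter, the replicate block, and single testes or pairs left out. Genes named by rule were the 6 members, the matched genes of the list of 80 and the 5 transcripts most like the members by each of 2 measures, of which 1 is not reported here. Cell type markers come from separate lists, and the transcripts under other observations were chosen after their values were seen.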

Additional observations from a re-analysis of the deposited data

How the results depend on the processing

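All 6 genes kept a log2 fold change below 0 in every alternative fit. Most values moved by less than the spread between testes, here the pooled SD of log2 CPM within the groups. That SD was 1.09 for acat2 and 0.80 for h6pd, so even a large shift of these genes can stay within it. Without both replicate 3 testes h6pd was at -0.48, against -1.22 with all testes, and acss1 at -0.36, against -0.66. In that fit aco1 was at -0.73 and fasn at -0.61. With single testes or pairs left out slc25a1b ran from -2.01 (without both replicate 1 testes) to -1.14 (without both replicate 3 testes) and acat2 from -2.35 (without both replicate 2 testes) to -0.23 (without both replicate 3 testes), and without basal replicate 3 acat2 was at -0.39. The count without overlap, 3 of 6, was 4 with RLE factors, with library totals and with no filter. The share over all transcripts was not computed under those settings. The count ran from 3 to 5 with single testes left out, and was 5 without both replicate 1 testes and 6 without both replicate 2 testes. Fewer testes overlap less easily, and the share over all transcripts was not computed for these sets, so the higher counts do not show a clearer separation. The mean r between the genes ran from -0.019 (without Insl3 replicate 3) to 0.50.

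Over all transcripts at an unadjusted p under 0.05, the replicate block gave 2229 lower and 2691 higher, against 341 and 197 without it, while the block in DESeq2, an alternative added once the data had been seen, gave 1347 and 2082 (477 after adjustment). No filter gave 570 lower, library totals 114 higher, and leaving out both replicate 2 testes 226 lower and 31 higher. With single testes left out the counts ran from 109 to 729 lower and from 61 to 743 higher (without Insl3 replicate 3 and without basal replicate 3), with 539 higher without Insl3 replicate 1 and 123 higher without basal replicate 2. The lower share was 63.4%, against 78.8% with library totals and 54.5% with DESeq2. Of the 15 further genes, 2 to 11 passed as lower with single testes left out, 4 without both replicate 2 and 1 without both replicate 3 testes. Over all tested transcripts, 109 to 729 did so with single testes left out. Without both replicate 2 testes 226 of 36635 did, and without both replicate 3 testes 503 of 37227 did. For the 6 genes the block moved no log2 fold change by more than their spread, with acat2 at -1.19 and h6pd at -1.03. The cause of these shifts was not tested. Depth limits slc25a1b and acat2 most, with 15 and 20 counts in Insl3 replicate 3.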

Other observations

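A few listed transcripts that act on acyl chains after their synthesis were looked at after their values were seen, and are given as values. The acyl-CoA thioesterase acot11b, which splits acyl-CoA into fatty acid and CoA, was on the higher side, with 4.59, 5.06 and 4.01 CPM with Insl3, against 3.64, 2.04 and 1.76 CPM under basal conditions (log2 fold change 0.87, standard error 0.36). Its groups did not overlap and it was higher in all 3 pairs. The CDP-diacylglycerol synthase cds1 had 1.80, 1.97 and 0.902 CPM with Insl3, against 2.53, 4.62 and 2.77 CPM under basal conditions. Its log2 fold change was -1.08 (standard error 0.43), and -1.18 without basal replicate 3. With single testes left out it ran from -1.28 to -0.76. The monoglyceride lipase mgll had a log2 fold change of -1.23 (standard error 0.47), and -1.05 without basal replicate 3. It had only 14 counts in Insl3 replicate 3. With single testes left out mgll ran from -1.52 to -0.89, and it was at -0.70 without both replicate 3 testes. For soat2 and pnpla2, as for acat2, the difference lay mostly in basal replicate 3. The sterol acyltransferase soat2 had 0.420, 0.578 and 0.551 CPM with Insl3, against 0.185, 1.11 and 5.12 CPM under basal conditions, and its log2 fold change was -2.02 (standard error 1.03) with all testes and -0.29 without basal replicate 3. The triglyceride lipase pnpla2 was at -0.95 (standard error 0.45), and at -0.31 without that testis.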
